A study of Danio rerio with 3 samples.

Results

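The basement membrane genes described here are the chains of type IV collagen and laminin, the nidogens, and the integrins that bind them at the cell surface. They were taken from a table of RPKM values (reads scaled by gene length and by the size of the library) by their symbols, as every gene named *col4a* with its number, *lama*, *lamb*, *lamc*, *nid*, *itga* or *itgb*. This gave 58 of 28084 rows with a gene symbol, for 57 different symbols, since *itga6a* is listed on a further row that is at 0 in every library. The rows hold 6 collagen IV genes, 13 laminin chains, 3 nidogens, 22 integrin alpha rows and 12 integrin beta rows. The remaining 2, *itgb1bp1* and *itgbl1*, match the name without being integrin chains.

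RNA-seq was run on pooled whole zebrafish larvae of the AB strain at 6 dpf (days post-fertilization), with 1 library per group. The 5MO larvae had been injected as early embryos with the *atg5* morpholino, an antisense oligonucleotide against the autophagy gene *atg5*, and are labelled as a knockdown. The 5mRNA larvae had been injected with *atg5* mRNA and are labelled as an overexpression, and the WT larvae were wild type and untreated. No library from larvae injected with a control morpholino was analysed here, so injection and *atg5* cannot be told apart in any comparison with WT. A whole-larva value is a mix of all tissues, and fewer cells of a type cannot be told apart from less RNA per cell.

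A basement membrane is a thin sheet of matrix under epithelia and around muscle, vessels and the notochord. Laminins are trimers of an alpha, a beta and a gamma chain that polymerize on the cell surface, collagen IV trimers form a crosslinked network beside them, and nidogens bind both. Integrins, dimers of an alpha and a beta chain, connect these sheets to the cytoskeleton. In zebrafish, loss of *lama1*, *lamb1a* or *lamc1* disturbs the notochord, and loss of *lama2* causes muscle fibers to detach.

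The read totals behind the RPKM values were recovered from their whole-number steps as 20301332 for 5MO, 21857365 for 5mRNA and 19502144 for WT. The reads of a gene are the smallest whole numbers that fit its 3 values, and the true numbers are these or a whole multiple of them. The share of a gene is its reads over the read total. Ratios of shares carry a 95% interval of the Clopper-Pearson kind, the counting interval, which covers counting error only and not the variation between pools of larvae. It is computed from the smallest whole numbers. Where the true reads are a multiple, it is wider than their counting error, so some intervals that include 1 may be too wide. No p-value can be given with 1 library per group, and each comparison is of libraries. The RPKM of *atg5* was 7.69 in 5MO and 8.97 in 5mRNA, against 9.08 in WT. Its 5MO ratio to WT was 0.847 (interval from 0.731 to 0.980), and its 5mRNA ratio to WT was 0.989 (interval from 0.861 to 1.14). At collection, *atg5* reads in 5mRNA thus differed from WT by less than counting error, and a morpholino need not lower its target mRNA. Of the 58 rows, 12 overlap another row on the same strand and 19 overlap one on either strand. Since the use of strand in the counting is not given, reads of these rows may be shared with their neighbors.

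The structural chains as a group were somewhat higher in 5MO than in WT, while the integrins went both ways. Of the 21 collagen IV, laminin and nidogen genes whose mean RPKM reached 0.1, 17 were higher in 5MO than in WT and 4 were lower. Over all 23709 named genes past that filter, 50.7% had a higher 5MO value and 49.1% a lower one. On the scale of RPKM + 0.1 the median log2 ratio was 0.23 for these chains and 0.0059 for all named genes. The counting interval lay above 1 for 11 of the 21 chains and below 1 for 2, against 19.0% and 18.5% of all named genes. A deeper gene passes its interval at a smaller change, and these chains had a median of 714.7 reads, against 190.3 for all genes. Of the 33 integrin chains past the filter, 16 were higher in 5MO than in WT and 17 lower, with a median log2 ratio of -0.0019. Their interval lay above 1 for 9 and below 1 for 8.

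Against WT, the structural chains of 5mRNA were nearer to all genes than those of 5MO, but most were also above WT. Of the 21, 15 were higher in 5mRNA than in WT and 6 lower, with 51.1% of all named genes higher and 48.7% lower. The interval lay above 1 for 7 of the 21 and below 1 for 5, against 17.5% and 17.0% of all named genes, and the median log2 ratio was 0.08. The integrin chains of 5mRNA had a median of 0.0034, with the interval above 1 for 4 of 33 and below 1 for 6. Both comparisons share the WT library. Between the injected libraries, 17 of the 21 structural chains were higher in 5MO than in 5mRNA, with 49.5% of all named genes higher and 50.3% lower, and their median log2 ratio was 0.21. The interval of that comparison lay above 1 for 12 of them and below 1 for 2, against 19.9% and 20.0% of all named genes. Of the comparisons with WT, the bars of genes past their interval show the larger share of structural chains above 1 in 5MO.

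**Figure D1:**
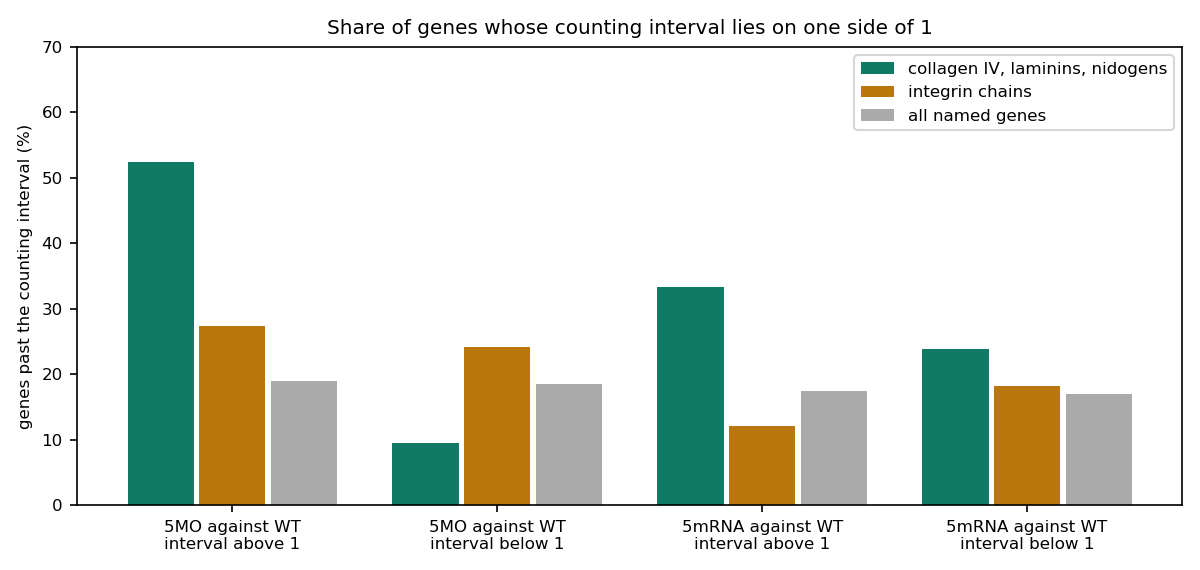
Percentage of genes whose 95% counting interval lies above or below 1, in 5MO against WT and 5mRNA against WT, for the 21 collagen IV, laminin and nidogen genes, the 33 integrin chains and all 23709 named genes whose mean RPKM reached 0.1. In 5MO against WT, 52.4% of the structural chains lie above 1 and 9.52% below, against 19.0% and 18.5% of all named genes.

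Large differences were few. At least 1.5-fold changes were counted on the scale of RPKM + 0.1, among genes whose mean RPKM reached 1, which 49 of the 58 rows reach. In 5MO against WT, 1 of the 49, *itgb1b.2*, was higher by this measure and 4 were lower, *itga6b*, *itga6l*, *itga11b* and *itgb3b*. All 5 are integrins. Of all 19172 named genes past this filter, 5.23% were higher and 5.74% lower, and the members' 2.04% and 8.16% were near these shares. In 5mRNA against WT none of the 49 passed 1.5-fold, where 4.87% of all genes were higher and 5.37% lower. Of the 56 members whose mean reached 0.1, the 5mRNA interval lay above 1 for 11 and below 1 for 11, 19.6% each, near the 17.5% and 17.0% of all named genes. In 5MO against 5mRNA, *col4a4* and *itgb1b.2* were at least 1.5-fold higher and *itga6l*, *itga11b* and *itgb3b* lower, with 5.60% and 5.37% of all genes past the same lines.

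**Figure D2:**
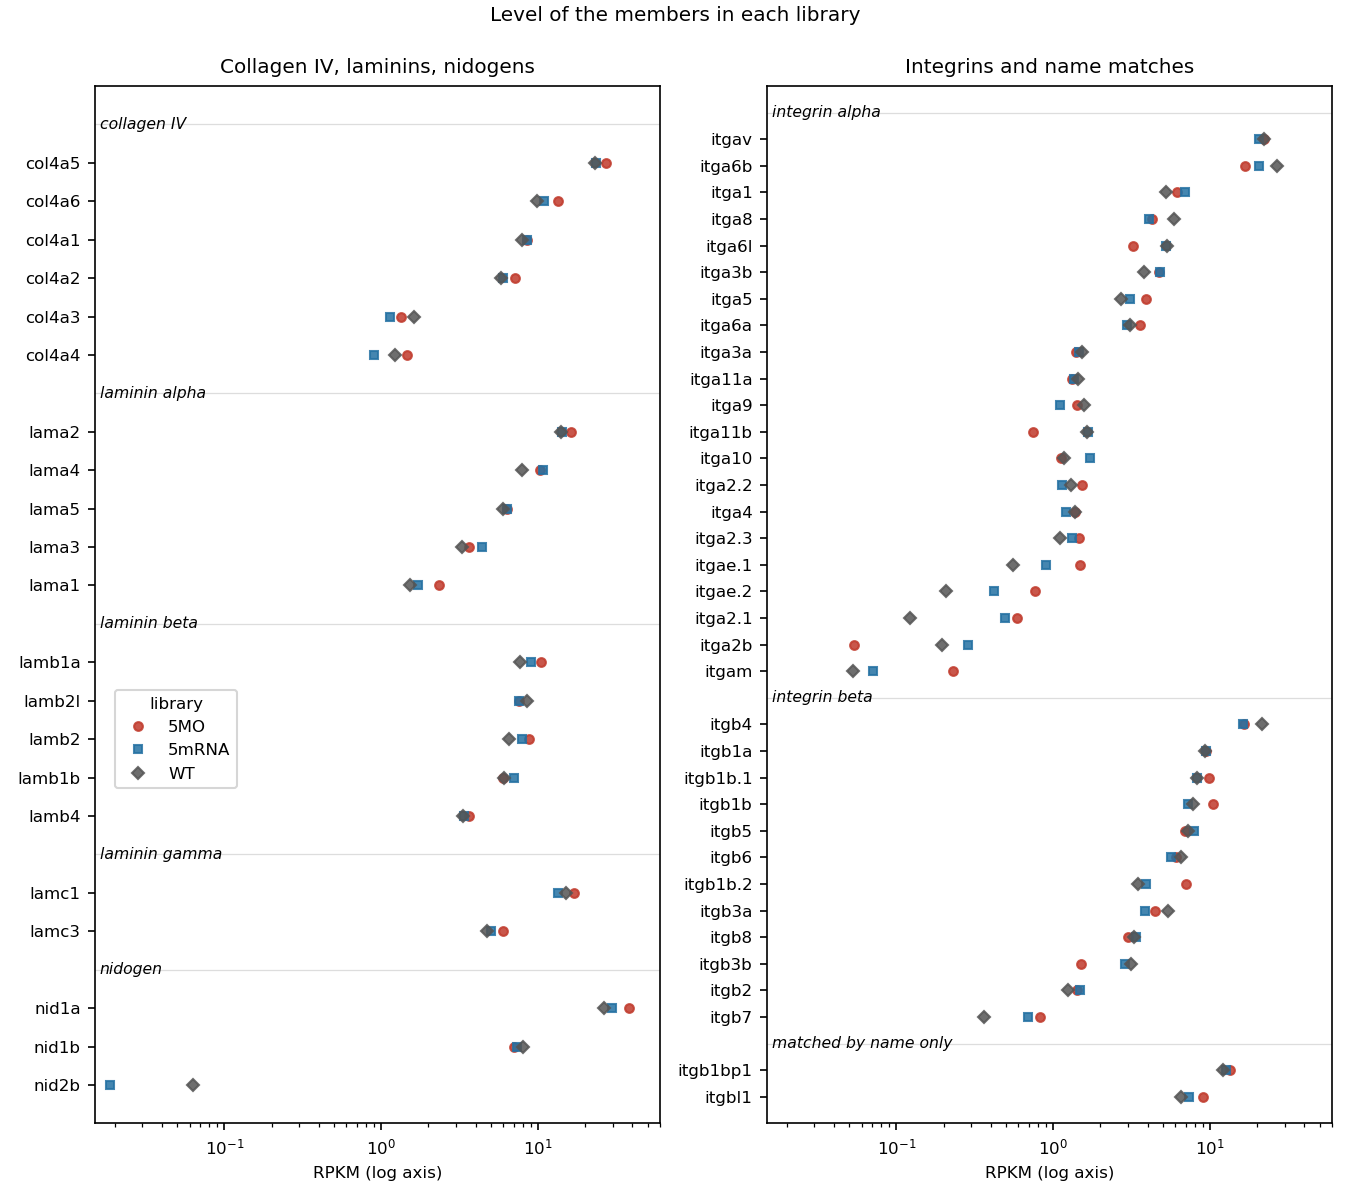
RPKM of the members on a log axis, with 1 left out, by family and in order of mean level, in the 5MO (circles), 5mRNA (squares) and WT (diamonds) libraries. Values of 0 are not drawn, which leaves out *nid2b* in 5MO and the second *itga6a* row, and *nid1a* is the highest member, at 38.3 in 5MO, 29.5 in 5mRNA and 26.3 in WT.

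Collagen IV was led by the *col4a5* and *col4a6* pair, and the levels of the 6 genes kept the same first 4 places in all 3 libraries. In vertebrates the collagen IV genes lie as head-to-head pairs, and the table shows 3 of them. *col4a5*, which guides retinal axons to their layers in zebrafish, spans bases 50828152 to 50919360 of chromosome 7, where positions follow the authors' table, with danRer10 named in the submitters' notes. Its RPKM was 27.3 in 5MO and 23.4 in 5mRNA, against 23.2 in WT, from 3272, 3025 and 2673 reads. It stood highest in 5MO, with a ratio of 1.18 against WT and an interval from 1.12 to 1.24, while 5mRNA was at 1.01 of WT with an interval from 0.958 to 1.06. Its neighbor *col4a6*, from 50645367 to 50827420 on the other strand and 731 bases away, was at 13.5 in 5MO and 10.9 in 5mRNA, against 9.81 in WT. *col4a6* was the collagen IV gene with the highest 5MO ratio, 1.37 with an interval from 1.29 to 1.47, and its 5mRNA ratio was 1.11 with an interval from 1.04 to 1.19. Within each library *col4a5* was 2.02 times the level of *col4a6* in 5MO and 2.14 times in 5mRNA, against 2.36 times in WT.

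Of the chains of the widespread collagen IV network, *col4a1* was close between libraries and *col4a2* was higher in 5MO. *col4a1*, on chromosome 9 from 8652642 to 8691828, was at 8.51 in 5MO and 8.49 in 5mRNA, against 7.92 in WT. Both intervals against WT include 1, from 0.992 to 1.17 for 5MO and from 0.9898 to 1.16 for 5mRNA. Its partner *col4a2*, from 8751910 to 8904769, was at 7.11 in 5MO and 5.95 in 5mRNA, against 5.85 in WT. Here 5MO stood apart from the other libraries, with a ratio of 1.22 against WT and an interval from 1.08 to 1.37. The starts of both genes face each other across 60081 bases in this annotation.

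*col4a3* and *col4a4* encode chains of the network of the kidney filter in mammals and were the lowest of the family. *col4a3*, on chromosome 15 from 36196895 to 36254825, was at 1.34 in 5MO and 1.14 in 5mRNA, against 1.63 in WT. *col4a4*, from 36093919 to 36197432, was at 1.45 in 5MO and 0.904 in 5mRNA, against 1.23 in WT. Both were lowest in 5mRNA, at 0.698 of WT for *col4a3*, with an interval from 0.563 to 0.864, and at 0.737 for *col4a4*, with an interval from 0.578 to 0.937. In 5MO against WT their ratios lay on different sides of 1, 0.823 and 1.18, and both intervals include 1. The pair overlaps by 538 bases on opposite strands, and *col4a4* overlaps a further transcript by 11072 bases, so reads may be shared. That transcript, si:dkeyp-110b2.2, lies on the opposite strand and was at 4.26 in 5MO and 1.65 in 5mRNA, against 3.14 in WT. Whether it shares reads with *col4a4* was not tested. The 6 podocyte markers, genes of the cells that wrap the kidney capillaries, summed to 31.1 in 5MO and 34.8 in 5mRNA, against 32.7 in WT. None is at 0, and the sum is mostly *mafba* and *podxl*, at 15.2 and 13.1 in 5MO. The slit diaphragm gene *nphs1* was at 0.399, 0.435 and 0.301, with intervals against WT that include 1. In 5MO against WT, 4 markers were higher and 2 lower, with 50.7% and 49.1% of all named genes. The interval lay below 1 for 2 of the 6 (33.3%), *podxl* at 0.838 and *wt1a* at 0.448, and above 1 for none. The shares of all named genes were 18.5% below and 19.0% above. In 5mRNA it lay above 1 for 2 (33.3%) and below 1 for none, against 17.5% and 17.0% of all named genes. Counts of 2 out of 6 genes are small. The part of these markers in the collagen values was not tested.

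Among the laminin alpha chains, all 5 had a higher value in 5MO than in WT and all 5 in 5mRNA than in WT. Of all named genes, 50.7% and 51.1% were higher. *lama2*, the alpha chain of muscle fibers, was the most abundant, at 16.3 in 5MO and 14.3 in 5mRNA, against 14.1 in WT. Its 5MO ratio was 1.16 with an interval from 1.04 to 1.28. The skeletal muscle markers (11 of 12 in the table, none at 0) summed to 33824 RPKM in 5MO and 31911 in 5mRNA, against 33218 in WT. That sum is mostly a few abundant genes. In 5MO against WT the interval lay above 1 for 6 of the 11 (54.5%) and below 1 for 4 (36.4%). The shares of all named genes were 19.0% and 18.5%. A deep gene passes its interval at a small change, as *actc1b* did at 1.04 with 388798 reads in 5MO. The median log2 ratio of the 11 was 0.029, with *acta1b* at a ratio of 1.29 and *myog* at 0.691. The part of the muscle markers in the *lama2* value was not tested. *lama4*, a chain of vessel walls and muscle, was at 10.3 in 5MO and 10.8 in 5mRNA, against 7.95 in WT. Both injected libraries lay above WT, with ratios of 1.30 and 1.36 and intervals from 1.196 to 1.41 and from 1.2501 to 1.47. The endothelial markers (11 of 13 in the table, none at 0) summed to 50.5 in 5MO and 55.5 in 5mRNA, against 48.0 in WT. The largest, *fli1a*, was at 15.0 in 5MO and 15.2 in 5mRNA, against 15.9 in WT, but most of the 11 were above WT. In 5MO 7 were higher and 4 lower, with 50.7% and 49.1% of all named genes. In 5mRNA 9 were higher and 2 lower, with 51.1% and 48.7%. In 5MO the interval lay above 1 for 2 of the 11 (18.2%) and below 1 for none, against 19.0% and 18.5% of all named genes. In 5mRNA it lay above 1 for 5 (45.5%) and below 1 for 1 (9.09%), against 17.5% and 17.0%. The part of these markers in the *lama4* value was not tested.

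The other alpha chains differed in which library was high. *lama1*, a chain of early embryonic basement membranes, was at 2.33 in 5MO and 1.72 in 5mRNA, against 1.53 in WT. It had the highest 5MO ratio of any structural chain, 1.53 with an interval from 1.31 to 1.78, and on the RPKM + 0.1 scale its log2 ratio of 0.58 fell just short of 1.5-fold. *lama1* shares 38804 bases with *rmdn1* on the opposite strand, which was at 48.1 in 5MO and 52.2 in 5mRNA, against 43.7 in WT, so its value is uncertain. *lama3*, known in mammals as the alpha chain under the skin, was highest in 5mRNA, at 4.40, with 3.65 in 5MO and 3.26 in WT. Its ratio against WT was 1.35 in 5mRNA, with an interval from 1.15 to 1.60, and 1.12 in 5MO with an interval that includes 1. *lama5*, needed in the fin fold epidermis of zebrafish, was nearly level, at 6.34 in 5MO and 6.30 in 5mRNA, against 5.98 in WT, and both of its intervals include 1.

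The laminin beta chains included paralogs with different orders of the libraries. *lamb1a* was at 10.4 in 5MO and 8.99 in 5mRNA, against 7.67 in WT, and *lamb1b* at 5.97 in 5MO and 7.02 in 5mRNA, against 6.03 in WT. *lamb1a* was highest in 5MO, with a ratio of 1.36 and an interval from 1.18 to 1.58, whereas *lamb1b* was highest in 5mRNA, with a ratio of 1.16 and an interval from 1.05 to 1.29. *lamb2*, a chain of the synapse and the kidney in mammals, was at 8.73 in 5MO and 7.91 in 5mRNA, against 6.49 in WT. Its neighbor *lamb2l*, 3079 bases away on the same strand of chromosome 23, was at 7.59 in 5MO and 7.53 in 5mRNA, against 8.46 in WT. The order of these neighbors differed between libraries, with *lamb2* at 1.15 times *lamb2l* in 5MO and 1.05 times in 5mRNA, against 0.767 times in WT. The interval of *lamb2* lay above 1 in both injected libraries, from 1.22 to 1.49 for 5MO and from 1.104 to 1.35 for 5mRNA, and that of *lamb2l* below 1 in both, from 0.821 to 0.980 in 5MO and from 0.816 to 0.971 in 5mRNA. *lamb4*, 3426 bases from *lamb1a* on chromosome 25, was at 3.62 in 5MO and 3.39 in 5mRNA, against 3.34 in WT.

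Among the laminin gamma chains, *lamc1*, the partner of most laminin trimers, lies on chromosome 2 from 35898143 to 35996721 and was at 17.1 in 5MO and 13.4 in 5mRNA, against 15.2 in WT. WT thus lay between the injected libraries. The ratio was 1.12 in 5MO with an interval from 1.05 to 1.196, 0.883 in 5mRNA with an interval from 0.827 to 0.943, and 1.27 between 5MO and 5mRNA with an interval from 1.19 to 1.35. *lamc3* was at 6.01 in 5MO and 5.05 in 5mRNA, against 4.76 in WT, and its 5MO ratio was 1.26 with an interval from 1.12 to 1.43.

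Nidogen 1 has a pair of copies in zebrafish, and these differed in direction. *nid1a*, on chromosome 13 from 49753659 to 49826548, was the highest of all 58 rows, at 38.3 in 5MO and 29.5 in 5mRNA, against 26.3 in WT, from 2559, 2126 and 1686 reads. The 5MO ratio was 1.46 with an interval from 1.37 to 1.55, and the 5mRNA ratio 1.13 with an interval that starts at 1.05. *nid1b*, on chromosome 11 from 44286305 to 44341597 and typed as a pseudogene in the table, was at 7.06 in 5MO and 7.34 in 5mRNA, against 8.05 in WT. It was lower in 5MO, with a ratio of 0.878 and an interval from 0.778 to 0.9904. *nid1a* was 5.42 times the level of *nid1b* in 5MO and 4.02 times in 5mRNA, against 3.26 times in WT. *nid2b* had 0 reads in 5MO, 1 in 5mRNA and 3 in WT, or a whole multiple of these, and no fold is given.

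**Figure D3:**
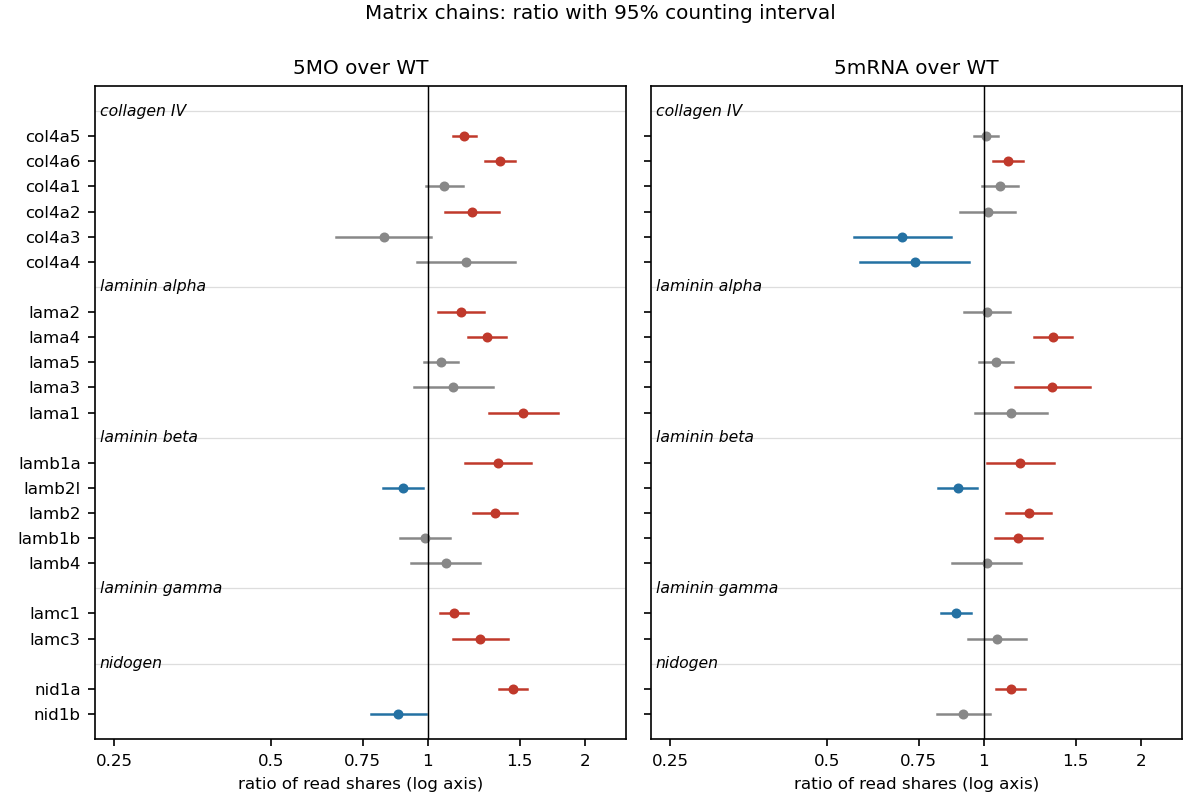
Ratio of read shares with its 95% counting interval (points and bars, log axis) for the collagen IV, laminin and nidogen genes with more than 3 reads in every library, with 1 left out, in 5MO over WT (left) and 5mRNA over WT (right). Red marks intervals above 1, blue intervals below 1 and grey those that include 1, and *nid1a*, *lama1* and *col4a6* lie farthest above 1 in 5MO, at 1.46, 1.53 and 1.37.

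Summed over each class, RPKM was higher in 5MO than in WT for every structural class, lower for the integrin alpha chains and close for the integrin beta chains. Collagen IV summed to 59.2 in 5MO and 50.8 in 5mRNA, against 49.6 in WT. The 5 laminin alpha chains summed to 39.0 in 5MO and 37.5 in 5mRNA, against 32.8 in WT. The beta chains summed to 36.3 in 5MO and 34.8 in 5mRNA, against 32.0 in WT, and the nidogens to 45.3 in 5MO and 36.9 in 5mRNA, against 34.4 in WT. The largest ratio of sums in 5MO against WT was that of the nidogens, 1.32, which is mostly *nid1a*. The integrin alpha sum was 0.897 of WT in 5MO and 0.934 in 5mRNA, and the beta sum 1.0003 of WT in 5MO and 0.918 in 5mRNA. RPKM depends on the length of the gene model. The length behind the *lama2* values is 2535 bases or a whole multiple of it and that behind *lama5* 11542, so a sum over chains may weigh partial models.

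**Figure D4:**
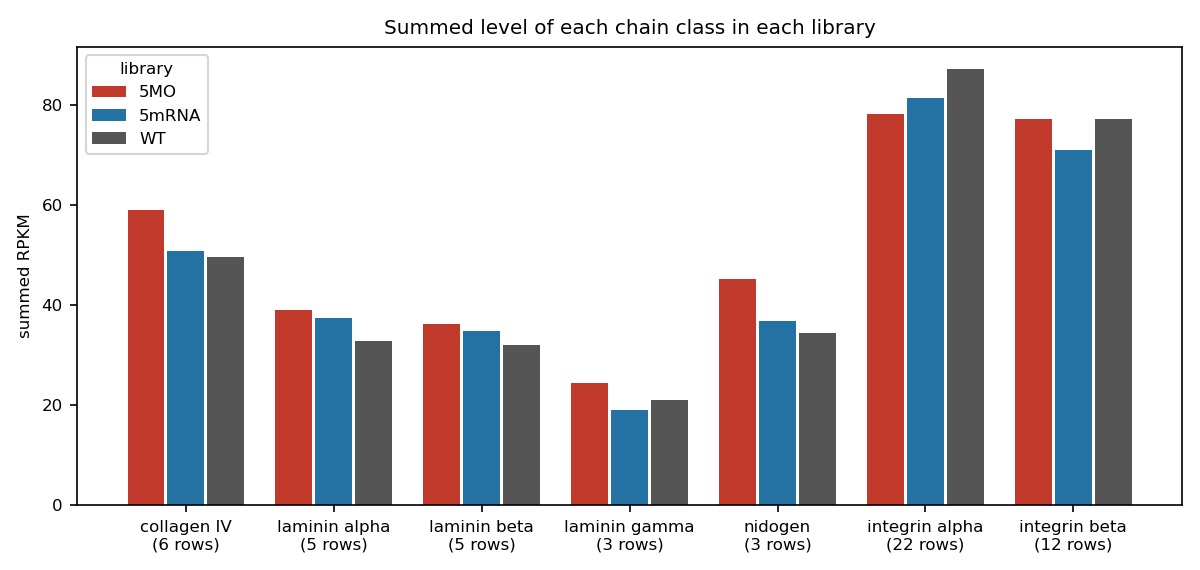
Summed RPKM of the members of each chain class in the 5MO, 5mRNA and WT libraries, with the number of rows per class under each label. The bars of the 5 structural classes are highest in 5MO, and the integrin alpha bar is highest in WT, at 87.3, with 78.3 in 5MO.

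Among the integrins, the pair that anchors the basal epidermis in hemidesmosomes was lower in both injected libraries. *itga6b*, on chromosome 1 from 30215219 to 30260789, was at 16.8 in 5MO and 20.6 in 5mRNA, against 26.8 in WT, from 750, 989 and 1149 reads. Its ratio was 0.627 in 5MO with an interval from 0.571 to 0.688, and 0.768 in 5mRNA with an interval from 0.705 to 0.837. *itgb4*, the beta chain of the hemidesmosome, was at 16.5 in 5MO and 16.3 in 5mRNA, against 21.5 in WT. The injected libraries were alike for *itgb4*, at 0.765 and 0.757 of WT, with intervals from 0.715 to 0.819 and from 0.709 to 0.809. The 8 epidermal genes listed as basal markers, of which none is at 0, summed to 5840 RPKM in 5MO and 5248 in 5mRNA, against 4998 in WT. That sum is mostly *krt5*, *krt4* and *krt91*, at 2440, 1498 and 1347 in 5MO. Whether the listed genes are limited to basal cells was not tested, so the sum is not a measure of basal cells. Their part in the *itga6b* and *itgb4* values was not tested either. All 8 were higher in 5MO than in WT, with 50.7% of all named genes higher. The 5MO interval lay above 1 for 5 of them and below 1 for none, against 19.0% and 18.5% of all named genes. The stem cell factor *tp63* was at 8.99 in 5MO and 8.97 in 5mRNA, against 8.08 in WT, and both of its intervals include 1. *col17a1a*, a collagen of the same junction, was at 35.8 in 5MO and 25.9 in 5mRNA, against 31.0 in WT. It was thus higher in 5MO, unlike *itga6b* and *itgb4*, with a ratio of 1.15 and an interval above 1. In 5mRNA it was lower, as they were, with a ratio of 0.834 and an interval from 0.791 to 0.880. Its paralog *col17a1b* was also lower in 5mRNA, at 0.797 of WT with an interval from 0.650 to 0.977. The 5MO interval of *col17a1b* includes 1. *col17a1a* belongs both to these markers and to the list of other basement membrane genes.

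The other laminin receptors differed in which libraries were low or high. *itga6a*, its paralog, was at 3.56 in 5MO and 2.98 in 5mRNA, against 3.08 in WT, and both intervals include 1. *itga6l*, named as similar to these genes, was lower in 5MO, as *itga6b* was, and near WT in 5mRNA. It was at 3.21 in 5MO, with 5.23 in 5mRNA and 5.32 in WT. Its 5MO ratio was 0.603 with an interval from 0.481 to 0.755, and its 5mRNA ratio 0.983 with an interval from 0.811 to 1.19. *itga3b*, a laminin receptor of epithelia, was at 4.72 in 5MO and 4.78 in 5mRNA, against 3.78 in WT. Both injected libraries lay above WT for *itga3b*, with ratios of 1.249 and 1.27 and intervals that start at 1.06 and 1.08. Its paralog *itga3a* was at 1.39 in 5MO and 1.45 in 5mRNA, against 1.52 in WT.

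The collagen receptors went different ways. *itga1*, the most abundant of them, was at 6.16 in 5MO and 6.98 in 5mRNA, against 5.21 in WT. It was higher in both injected libraries, with ratios of 1.18 and 1.34 and intervals from 1.04 to 1.34 and from 1.18 to 1.52. *itga11b* was at 0.749 in 5MO and 1.66 in 5mRNA, against 1.65 in WT, from 42, 100 and 89 reads. The 5MO value was well under the others, with a ratio of 0.453 and an interval from 0.306 to 0.661, whereas *itga11a* was at 1.32 in 5MO and 1.35 in 5mRNA, against 1.43 in WT. *itga10*, a receptor of cartilage cells in mammals, was highest in 5mRNA, at 1.72, with 1.13 in 5MO and 1.17 in WT, and its 5mRNA ratio was 1.47 with an interval from 1.15 to 1.88. The cartilage markers (9 of 10 in the table, none at 0) summed to 536.6 in 5MO and 382.4 in 5mRNA, against 340.2 in WT. Of the 9, 8 were higher in 5MO than in WT, *sox9a* being the exception, with 50.7% of all named genes higher. The 3 *itga2* rows stand beside *itga1* on chromosome 10. *itga2.2* and *itga2.3* have intervals that include 1 in both comparisons with WT, and *itga2.1* had 10 reads in 5MO and 9 in 5mRNA, against 2 in WT. *itga1*, *itga2.1* and *itga2.3* overlap *isl1l* on the same strand.

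The receptors for fibronectin and other RGD proteins differed by chain. *itga5*, the fibronectin receptor of the somites, was at 3.91 in 5MO and 3.11 in 5mRNA, against 2.72 in WT. Its 5MO ratio was 1.44 with an interval up to 1.73 that lies above 1, and the interval of 5mRNA includes 1. Its ligand *fn1b* was at 105.3 in 5MO and 76.4 in 5mRNA, against 58.1 in WT, a 5MO ratio of 1.81 with an interval from 1.75 to 1.87. *itgav*, the alpha chain of several RGD receptors, was at 22.2 in 5MO and 20.6 in 5mRNA, against 22.2 in WT. Its 5MO interval includes 1, and its 5mRNA ratio was 0.927 with an interval from 0.862 to 0.997. *itga8*, a nephronectin receptor in mammals, was at 4.29 in 5MO and 4.11 in 5mRNA, against 5.87 in WT, and both injected libraries lay below WT, at 0.731 with an interval from 0.618 to 0.864 and at 0.701 with an interval from 0.593 to 0.827. *itga9* was lower in 5mRNA, at 0.702 of WT with an interval from 0.522 to 0.942, and its 5MO interval includes 1. Among the beta chains, *itgb5*, *itgb6* and *itgb8*, which pair with *itgav*, had intervals that include 1 in both comparisons with WT. The beta 3 chains, described below, had 5MO intervals below 1, with ratios of 0.827 for *itgb3a* and 0.485 for *itgb3b*.

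The beta 1 chain, the partner of most matrix receptors, is spread over 4 rows. *itgb1a* was level, at 9.38 in 5MO and 9.39 in 5mRNA, against 9.30 in WT. *itgb1b.2* was at 7.07 in 5MO and 3.93 in 5mRNA, against 3.46 in WT, and so was about as high in 5mRNA as in WT. Its 5MO ratio was 2.05 with an interval from 1.68 to 2.497, the highest of the members with a mean RPKM of at least 1. *itgb1b.2* lies inside *itgb1b.1* on the same strand of chromosome 2, with 14234 bases shared, and a further *itgb1b* row lies on an unplaced scaffold. *itgb1b.1* and *itgb1b* had 5MO ratios of 1.19 and 1.36, with intervals that start at 1.05 and 1.14. How the authors' counting split reads among these rows is not given in the sources used here, so the size of the *itgb1b.2* difference is uncertain.

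The integrin of thrombocytes, the nucleated platelets of fish, is made of *itga2b* and a beta 3 chain, and its genes were lower in 5MO. *itgb3b* was at 1.51 in 5MO and 2.89 in 5mRNA, against 3.12 in WT, from 52, 107 and 103 reads. Its 5MO ratio was 0.485 with an interval from 0.341 to 0.683, and its 5mRNA ratio 0.927 with an interval that includes 1. *itga2b* had only 4 reads in 5MO and 23 in 5mRNA, against 14 in WT, a 5MO ratio of 0.274 with an interval from 0.0658 to 0.874. *itgb3a* was at 4.46 in 5MO and 3.88 in 5mRNA, against 5.39 in WT, with intervals below 1 in both, the lowest ratio being 0.720 in 5mRNA. *itgb3a* lies along another gene, zgc:123297, on the same strand for all of its 28574 bases. That gene was at 1.05 in 5MO and 0.764 in 5mRNA, against 1.54 in WT, so the *itgb3a* value is uncertain. Of the 6 thrombocyte markers none is at 0. In 5MO against WT 4 were higher and 2 lower, with 50.7% and 49.1% of all named genes. Their sum of 98.9 in 5MO and 91.7 in 5mRNA, against 62.4 in WT, is mostly *fgb*, a fibrinogen chain made in the liver. Besides *fgb*, the higher ones were *nfe2*, *gata1a* and *mpl*. These had 19, 18 and 9 reads in 5MO and 23, 12 and 5 in 5mRNA, against 9, 11 and 7 in WT. Their 5MO intervals include 1. The surface glycoprotein genes *gp9* and *gp1bb* were the lower ones, with 5 and 31 reads in 5MO and 11 and 41 in 5mRNA, against 10 and 41 in WT, and intervals that include 1. The part of the 6 markers in the integrin values was not tested.

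The integrins of leukocytes were low, and the *itgae* rows were higher in 5MO. In mammals *itgae* and *itgb7* form the receptor that holds lymphocytes in epithelia. *itgae.1* was at 1.49 in 5MO and 0.895 in 5mRNA, against 0.551 in WT, from 79, 51 and 28 reads. It stood highest in 5MO and lowest in WT, with ratios of 2.71 and 1.63 and intervals from 1.74 to 4.33 and from 1.01 to 2.68. *itgae.2* overlaps it by 17154 bases on the same strand and was at 0.765 in 5MO and 0.421 in 5mRNA, against 0.207 in WT, so the reads of both rows cannot be told apart with certainty. *itgb7* had 19 reads in 5MO and 17 in 5mRNA, against 8 in WT, and both of its intervals include 1. *itgb2*, the beta chain shared by leukocytes, was at 1.41 in 5MO and 1.48 in 5mRNA, against 1.249 in WT, *itga4* at 1.38 in 5MO and 1.21 in 5mRNA, against 1.38 in WT, and the intervals of both include 1. *itgam* had 9 reads in 5MO and 3 in 5mRNA, against 2 in WT. The leukocyte markers (8 of 10 in the table, none at 0) summed to 71.3 in 5MO and 69.4 in 5mRNA, against 48.7 in WT. In 5MO against WT 6 of the 8 markers were higher, with 50.7% of all named genes higher. The neutrophil gene *mpx* was among the 6, with a ratio of 2.30, while the pan-leukocyte gene *ptprc* had 0.920. Their part in the *itgae* values was not tested.

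**Figure D5:**
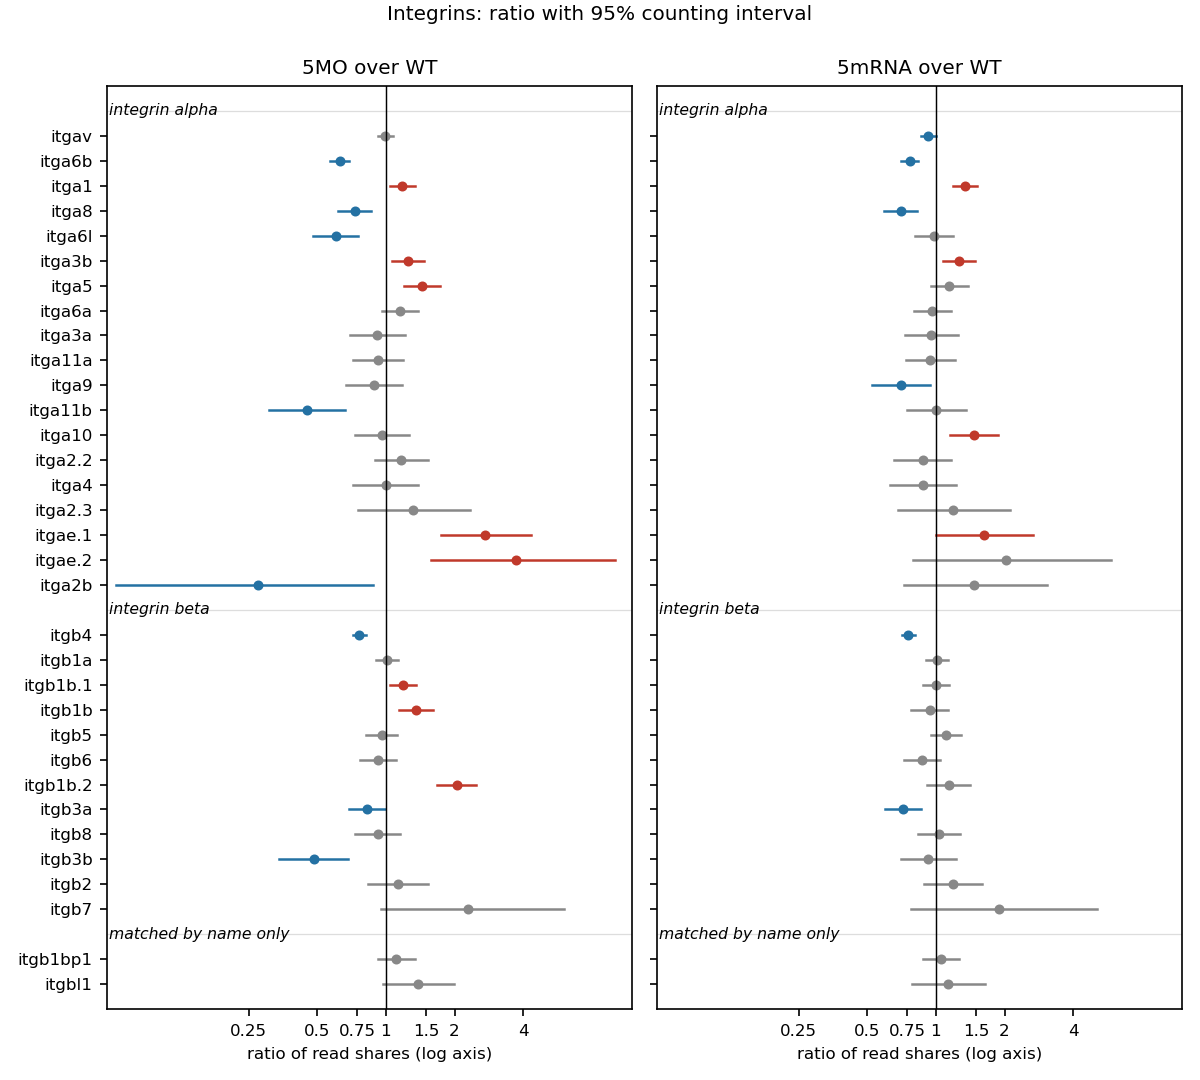
Ratio of read shares with its 95% counting interval (points and bars, log axis) for the integrins and the 2 name matches with more than 3 reads in every library, in 5MO over WT (left) and 5mRNA over WT (right). Red marks intervals above 1, blue intervals below 1 and grey those that include 1, and *itga6b*, *itga6l*, *itga11b*, *itgb3b* and *itga2b* lie lowest in 5MO, between 0.627 and 0.274.

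The 2 rows that match by name had intervals that include 1 in every comparison with WT. *itgb1bp1*, which encodes a cytoplasmic protein that binds the beta 1 tail, was at 13.3 in 5MO and 12.6 in 5mRNA, against 12.02 in WT. *itgbl1*, a secreted protein with integrin-like repeats, was at 9.07 in 5MO and 7.38 in 5mRNA, against 6.53 in WT. *itgbl1* lies across *fgf14* on the opposite strand, with 77380 bases shared.

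Other genes of the pathway were described from 4 lists. Of 30 other basement membrane rows with a mean RPKM of at least 0.1, the interval in 5MO against WT lay above 1 for 11 (36.7%) and below 1 for 3, against 19.0% and 18.5% of all named genes, with a median log2 ratio of 0.15. The perlecan gene *hspg2* had a ratio of 1.11, *fbln2* of the fibulins 1.94, the collagen-binding *sparc* 1.19, and *agrn*, the organizer of the neuromuscular synapse, 1.04 with an interval that includes 1. In 5mRNA the list had 3 above and 3 below, shares under the 17.5% and 17.0% of all named genes. Of 21 other matrix receptors and ligands, 10 lay above (47.6%) and 2 below (9.52%) in 5MO, against 19.0% and 18.5% of all named genes. In 5mRNA, 4 lay above (19.0%) and 1 below (4.76%), against 17.5% and 17.0%, so the share above was near that of all genes. The vitronectin genes *vtna* and *vtnb*, ligands of *itgav* receptors that are made in the liver, were higher in both injected libraries, with ratios of 1.81 and 1.63 in 5MO and 2.05 and 1.74 in 5mRNA. *sdc4*, a syndecan of adhesion sites, was at 0.770 of WT in 5MO.

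Focal adhesion genes, which connect integrins to actin, had the interval above 1 for 9 of 28 (32.1%) and below 1 for 2 (7.14%) in 5MO, against 19.0% and 18.5% of all named genes. In 5mRNA, 7 lay above and 2 below (7.14%), against 17.5% and 17.0%. The parvin *parvaa* was higher in both, with ratios of 1.63 and 1.40, and the paxillin *pxna* lower in 5MO, at 0.770. *fermt3b*, a kindlin of blood cells, had 29 reads in 5MO and 19 in 5mRNA, against 10 in WT. Of 25 genes of collagen folding, secretion and crosslinking, 7 lay above (28.0%) and 4 below (16.0%) in 5MO, against 19.0% and 18.5% of all named genes. In 5mRNA, 4 lay above (16.0%) and 9 below (36.0%), against 17.5% and 17.0%, so the share above was near that of all genes. The collagen chaperone *serpinh1b* was at 16.3 in 5MO and 12.8 in 5mRNA, against 10.01 in WT, with ratios of 1.63 and 1.28. The lysyl oxidase gene *loxl2a*, which crosslinks collagen IV, was lower in both. It was at 0.589 of WT in 5MO with an interval from 0.523 to 0.662 and at 0.482 in 5mRNA with an interval from 0.426 to 0.545. Its paralog *loxl2b* was higher in 5MO, at 1.23 with an interval from 1.06 to 1.42, and lower in 5mRNA, at 0.818 with an interval from 0.696 to 0.960. The median log2 ratio of that list was 0.09 in 5MO and -0.11 in 5mRNA. Notochord markers (5 of 6 in the table) summed to 55.5 in 5MO and 52.0 in 5mRNA, against 49.3 in WT. That sum is mostly *cav1*, at 30.7 in 5MO and 28.5 in 5mRNA, against 28.8 in WT. *noto* had 0 reads in both injected libraries and 3 in WT, too few for a ratio. Schwann cell and glial markers (6 of 6, none at 0) summed to 456.9 in 5MO and 403.3 in 5mRNA, against 421.2 in WT. That sum is mostly *fabp7a* and *mbpa*, which went different ways in 5MO against WT. Their ratios were 1.30, with an interval from 1.23 to 1.38, and 0.875, with an interval from 0.828 to 0.925.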

How the data were processed

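Total RNA of pooled larvae was sequenced after NEBNext Ultra library preparation, and STAR 2.5.2a with the danRer10 genome is named in the submitters' processing notes. The deposited values are RPKM, which the authors computed for each gene in each library, and STAR mapping summaries, with 28190319 read pairs for 5MO, 31140490 for 5mRNA and 27492652 for WT, of which 87.88%, 87.63% and 87.68% mapped uniquely. The counting tool, its use of strand and the annotation release are not given in the sources used here. Coordinates are those of the deposited table.

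Of 28117 rows, 33 name no gene, hold 36.1%, 35.7% and 35.8% of the RPKM sum in 5MO, 5mRNA and WT, and were left out. Reads were recovered from the RPKM steps by a procedure tested on simulated data. Python 3.11.15 with numpy 2.4.6, pandas 2.3.3 and scipy 1.17.1 was used. Medians use genes whose mean RPKM reached 0.1 and a pseudocount of 0.1, and fold counts a mean of at least 1. The rule named in full the up to 4 most abundant members of each family, those past 1.5-fold and the collagen IV pairs. Other members with full values, and the examples from the lists, were picked after their values were seen. The members, the lists of other pathway and marker genes, the settings and the alternatives were chosen with earlier results of these data known. Groups are single libraries, so no test was run and no paired or replicate analysis exists. Pseudocounts of 1 and 0.01, other filters, folds of 2 and 1.25 (a log2 ratio of 0.32), a 99% interval and other scalings were tried. The values of 1 member are not reported here, although it is included in the counts, medians and sums.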

Additional observations from a re-analysis of the deposited data

How the results depend on the processing

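With 1 library per group, no result has a replicate check. No paired analysis was possible because each group has 1 library. Low members such as *itga2b* and *nid2b* are limited by their few reads. Of the alternatives for single members, 499 stayed inside the member's counting interval and none of the 5 others changed direction. They are *itgae.1*, *itgae.2* and *itga2b* in 5MO against WT and *itga11b* and *itga2b* in 5MO against 5mRNA, all with a pseudocount of 1. A member with few reads has a wide interval, so staying inside it is a weak check. With a pseudocount of 1, the log2 ratio of *itga2.1* in 5MO against WT went from 1.63 to 0.50 and stayed inside. Of the alternatives for counts, medians and sums, 101 stayed close and 19 counts moved by over 1.5 times. Medians of all members, 0.17 in 5MO against WT, and sums kept their direction. Scaling shifted all genes by at most 0.024 (log2).

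For members at least 1.5-fold higher in 5MO than in WT, the count of 1 became 2 with a pseudocount of 0.01 or with equal RPKM sums, 6 with a mean RPKM of at least 0.1, 12 with the lower fold (log2 of 0.32), and 0 without the 13 members that overlap another row on the same strand or lie on a scaffold. That last setting was chosen after seeing the data. The count of 4 lower members became 1 with a fold of 2. In 5mRNA against WT the counts of 0 became 4 higher and 1 lower with a mean of at least 0.1, and 5 higher and 7 lower with the lower fold. In 5MO against 5mRNA, the 2 higher became 1 with a pseudocount of 1 or without overlapping members, 6 with a mean of at least 0.1, 0 with a fold of 2 and 8 with the lower fold, and the 3 lower became 1 with a fold of 2. Of the 56 members with a mean of at least 0.1, the interval in 5MO against WT lay above 1 for 20 (35.7%) and below 1 for 10 (17.9%). The shares of all named genes were 19.0% and 18.5%. The 20 above became 12 without overlapping members, a setting that also leaves fewer members to count. The 10 below became 6 with a 99% interval, at which the 11 below in 5mRNA against WT became 7. Shares of all named genes are not given at the alternative settings. The counts there show only how the calls moved, and cannot be set against all genes.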
